A study of Mus musculus with 33 samples.

Results

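The endoplasmic reticulum (ER) holds a set of chaperones and disulfide isomerases that fold proteins on their way out of the cell, and 36 of these genes are described here out of 50420 gene identifiers in the 6 expression tables. The members were chosen by symbol, from lists of known function, with earlier results of these data known. They fall into 6 subfamilies. These are 3 heat shock proteins of the ER lumen (HSP), 2 lectin chaperones, 14 members of the protein disulfide isomerase family and its thioredoxin-domain relatives (PDI), 5 DnaJ co-chaperones, 7 cofactors of Hspa5 and stress-released proteins, and 5 prolyl isomerases (4 FKBP proteins and the cyclophilin Ppib). All 36 were listed in every table and passed the filter on low values (normalized counts averaging 5 or more) in every comparison. Male mice aged 15 to 23 weeks were injected with 1 mg/kg tunicamycin (TM) in DMSO, or with DMSO alone as control, and RNA from liver and kidney was sequenced. The mice were C57BL/6J (B6), CAST/EiJ (CAST) or the F1 of a B6 female and a CAST male. The kidney had 3 TM and 3 control samples in each genotype, and the liver had 2 TM and 3 controls in B6, 3 TM and 2 controls in CAST, and 2 TM and 3 controls in F1, 33 samples in all. The sample labels give 24 h of treatment and the study's methods give 8 h, so the time is uncertain. The study had removed outlying samples so that TM and control samples of a group clustered apart, which bears on every difference between them. The labels do not say which liver and kidney samples came from 1 mouse.

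TM inhibits the enzyme that starts the sugar tree of N-linked glycoproteins, which then misfold in the ER. The unfolded protein response senses this through 3 membrane proteins, Ern1 (IRE1), Eif2ak3 (PERK) and Atf6, and raises the transcription of folding factors. Hspa5 (BiP), the Hsp70 of the ER, binds unfolded chains and works in a cycle of ATP hydrolysis that DnaJ proteins start and nucleotide exchange factors end. The lectins Calr and Canx hold glycoproteins by a sugar tag, PDI enzymes form and rearrange disulfide bonds, and FKBP proteins and cyclophilins turn peptide bonds at proline. In liver and kidney, whose epithelial cells secrete or carry much protein, these factors are made at all times and are raised under ER stress.

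The ER stress response element (ERSE) is a well known promoter sequence of such genes, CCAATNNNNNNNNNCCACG, in which NF-Y binds CCAAT and ATF6 binds CCACG. Exact matches to it were searched on both strands in promoter windows from RefSeq on the build GRCm38.p6. Each window ran from 250 bases before to 50 bases after an annotated start. Sites that differ from the element in any fixed letter were not counted. Of the 36 members, 31 had at least 1 window, and Manf, Tmx3, Hyou1, Sil1 and Erp29 had none. The whole ERSE was found in 7 of the 31 members (22.6%), beside 39 of all 32851 windows (0.119%) and 37 of 27025 genes (0.137%). These members were Hspa5, Hsp90b1, Calr, Canx, Creld2, Dnajc3 and Pdia6. The element is known from promoters of such genes, and the members were chosen by known function. Their share is thus partly set by the choice. The shorter ERSE-II, ATTGGNCCACG, was found in 12 of all windows, 1 of them that of Dnajb11. The core of the unfolded protein response element, TGACGTG, was found in 4 members (12.9%) against 2.22% of all genes, namely Hspa5, Fkbp11, Txndc5 and Txndc11. The ATF4 composite letters TGATGNAA were found in 2 members, Cdnf and Txndc5 (6.45%), against 4.51% of all genes. Counted apart, CCACG was in 23 of the 31 members (74.2%) against 35.5% of all genes, and CCAAT in 24 (77.4%) against 41.1%. Both short motifs lie inside the ERSE, so these counts overlap with it, and members with several windows had more than 1 chance of a match.

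The windows shown here are those of Hspa5, Hsp90b1, Creld2, Canx, Dnajb11 and Sdf2l1. That of Hsp90b1 was the only window among all 32851 with more than 1 exact match to the ERSE. Creld2 had the largest response, and Canx had an ERSE and a small response. Dnajb11 had the ERSE-II, and Sdf2l1 responded strongly with no exact match to either element in its window. Each window runs 5′ to 3′ along the gene's strand. Capitals mark the outer 5 letters at each end of an ERSE or ERSE-II, with the spacer in lower case.
Hspa5, chr2:34771840-34772139, plus strand: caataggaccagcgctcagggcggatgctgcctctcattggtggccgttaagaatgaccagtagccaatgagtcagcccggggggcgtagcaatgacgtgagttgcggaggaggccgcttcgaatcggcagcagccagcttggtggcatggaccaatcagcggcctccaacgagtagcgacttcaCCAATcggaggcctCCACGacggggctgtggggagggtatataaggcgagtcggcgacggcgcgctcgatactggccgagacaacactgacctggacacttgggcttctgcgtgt
Hsp90b1, chr10:86705395-86705694, minus strand: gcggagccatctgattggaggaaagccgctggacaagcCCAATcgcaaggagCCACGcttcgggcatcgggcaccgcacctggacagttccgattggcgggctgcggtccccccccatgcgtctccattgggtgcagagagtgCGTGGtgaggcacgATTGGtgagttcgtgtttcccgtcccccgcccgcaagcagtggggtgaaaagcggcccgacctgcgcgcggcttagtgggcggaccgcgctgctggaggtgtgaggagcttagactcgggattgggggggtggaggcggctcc
Creld2, chr15:88819396-88819695, plus strand: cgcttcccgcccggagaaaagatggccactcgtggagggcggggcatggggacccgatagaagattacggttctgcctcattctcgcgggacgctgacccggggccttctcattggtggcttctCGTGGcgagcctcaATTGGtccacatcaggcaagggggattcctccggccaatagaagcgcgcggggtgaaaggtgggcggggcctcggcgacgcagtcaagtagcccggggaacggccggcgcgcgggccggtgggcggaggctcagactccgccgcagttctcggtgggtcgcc
Canx, chr11:50325624-50325923, minus strand: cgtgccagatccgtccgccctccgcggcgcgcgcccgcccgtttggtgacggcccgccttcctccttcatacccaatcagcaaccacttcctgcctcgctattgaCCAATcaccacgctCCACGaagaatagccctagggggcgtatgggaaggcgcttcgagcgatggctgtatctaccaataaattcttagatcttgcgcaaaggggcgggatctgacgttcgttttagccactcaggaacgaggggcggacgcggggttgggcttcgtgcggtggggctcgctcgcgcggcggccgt
Dnajb11, chr16:22857595-22857894, plus strand: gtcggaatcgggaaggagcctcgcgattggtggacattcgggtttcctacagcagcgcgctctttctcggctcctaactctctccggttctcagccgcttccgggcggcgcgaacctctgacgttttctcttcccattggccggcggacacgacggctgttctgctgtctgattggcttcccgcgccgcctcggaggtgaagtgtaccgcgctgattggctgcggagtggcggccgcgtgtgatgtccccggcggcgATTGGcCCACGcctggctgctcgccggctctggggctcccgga
Sdf2l1, chr16:17132334-17132633, minus strand: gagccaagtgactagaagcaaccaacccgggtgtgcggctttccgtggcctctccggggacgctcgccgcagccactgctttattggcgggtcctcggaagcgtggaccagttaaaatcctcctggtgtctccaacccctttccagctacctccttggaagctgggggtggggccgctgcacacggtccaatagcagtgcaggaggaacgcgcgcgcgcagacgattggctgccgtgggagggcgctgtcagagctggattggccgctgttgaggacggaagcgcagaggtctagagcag
The ERSE of Hspa5 began 65 bases before the annotated start, that of Canx 145, that of Creld2 126, and those of Hsp90b1 212 and 107 bases before it, while the ERSE-II of Dnajb11 lay after the start. The Creld2 site and the nearer Hsp90b1 site were on the opposite strand and read from CGTGG to ATTGG. The sites of the remaining 3 members were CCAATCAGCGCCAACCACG in Dnajc3, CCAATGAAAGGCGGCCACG in Pdia6 and, on the opposite strand, CGTGGTCGACCCTCATTGG in Calr. The 8 members with an ERSE or ERSE-II had a median log2 fold change over the 6 comparisons of 0.70 to 5.43, and the 23 matched members with neither had -0.60 to 4.67. An ERSE or ERSE-II was in the window of 7 of the 15 matched members called higher in all 6 comparisons, of 1 of the 8 called higher in some, and of 0 of the 8 called higher in none. These matches are letters in a window and not measured binding. The split by response is a description and not a test, as the ERSE is known from such genes.

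The libraries held 3355262 to 23094521 reads on genes, with a median of 13143216. Liver libraries held 10154 to 81515 reads per 1000000 (CPM) on 6 hepatocyte markers against 328 to 1292 in kidney, and kidney libraries held 10778 to 28701 CPM on 4 proximal tubule markers against at most 15.4 in liver, so that each tissue held the markers of its own label. The summed markers were lower with TM, with no overlap, in 5 of 6 tables, at 39994 to 58761 CPM against 54834 to 81515 for hepatocyte markers in B6 and CAST liver (19923 to 34272 against 10154 to 52084 in F1 liver, where they overlapped) and at 10778 to 15031 against 17769 to 28701 for proximal tubule markers in kidney. Gene by gene, the 6 hepatocyte markers had median log2 fold changes of -0.81, -0.66 and -1.07 in B6, CAST and F1 liver, all below 0 and none called. The 4 proximal tubule markers had medians of -0.46, -0.13 and 0.23 in B6, CAST and F1 kidney, with 1 called lower in B6, and in F1 they ran from -0.57 to 0.61, so that some were higher with TM while the sum was lower. Fewer cells of a type and less RNA per cell cannot be told apart in such bulk samples. Several libraries stood apart. A set of 5 libraries, B6 liver control 2, B6 liver TM 3, F1 liver control 2, F1 liver TM 2 and F1 kidney control 1, carried many reads on olfactory and vomeronasal receptor genes (579, 894, 248, 2435 and 1420 CPM with Gm10800 left out), and F1 liver control 2 had 61.5% of its reads on the single gene Gm10800. Receptor reads alone do not define this set. F1 liver TM 1, F1 kidney control 3 and F1 kidney TM 2 held 300, 293 and 265 CPM. These exceed the 248 of F1 liver control 2, yet those libraries were not in the set. The members were low in 4 of these libraries. B6 liver control 2 was the lowest B6 liver control in 33 of 36 members and in 43.6% of all genes tested, F1 liver control 2 the lowest F1 liver control in 33 members and 46.2% of genes, F1 liver TM 2 the lower F1 liver TM sample in 34 members and 49.2% of genes, and F1 kidney control 1 the lowest F1 kidney control in 29 members and 47.6% of genes. Markers of pancreatic acinar cells, which make much ER, summed to 96.7, 102 and 225 CPM in CAST liver control 2 and F1 liver controls 2 and 3 and to at most 11.3 CPM in every other library. Their part in the results was not tested, and counts without these libraries are given beside the results.

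A member was called when its Benjamini-Hochberg adjusted p over all genes was below 0.05 in limma and its change was at least 1.5-fold. With TM, 20 of the 36 members were called higher in B6 liver, where 4.8% of all 21741 genes tested were. In CAST liver 23 members were called higher (11.1% of all genes), in F1 liver 18 (3.42%), in B6 kidney 21 (9.73%), in CAST kidney 25 (8.69%) and in F1 kidney 27 (7.54%). A single member was called lower in any comparison, Tmx4 in B6 liver, where 6.45% of all genes were (10.4% in CAST liver, 4.15% in F1 liver, and 7.77%, 4.7% and 2.57% in B6, CAST and F1 kidney). Across the 6 comparisons 17 members were called higher in all, beside 372 of 14695 genes (2.53%), and 9 were called higher in none. The median log2 fold change of the members was 1.42, 1.55 and 1.61 in B6, CAST and F1 liver and 1.16, 1.07 and 1.38 in kidney, where that of all genes lay between -0.13 and 0.21. The groups did not overlap, with each TM sample above each control, in all 6 comparisons for 20 members, the 17 and P4hb, Erp29 and Erp44. The share of all genes with such a gap in all 6 was not computed. In single comparisons, such a gap was found for 18.2%, 25.4% and 15.2% of all genes in B6, CAST and F1 liver and 20.3%, 18% and 19.5% in kidney. The reverse gap, with each TM sample below each control, was found for 19.9%, 25.6% and 15.9% in liver and 18.7%, 14.9% and 14.1% in kidney.

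Limma without its mean-variance trend, which then fits 1 prior spread to all genes, called 0 members in either direction in B6 liver and 0 in F1 liver (against 21 and 18 with it), and at least 19 in each other comparison. With no filter on low values 9 were called in F1 liver. The shares of all genes called under the settings of this paragraph are not given here. A shift in these counts therefore cannot be read as particular to the members. Without the 5 libraries above, the members called numbered 26 in B6 liver and 28 in F1 liver, each from 1 TM sample against 2 controls, with the TM sample assumed to vary like the controls. Without the 3 liver controls with pancreatic reads, a choice made after seeing the data that leaves 1 control in each table, they numbered 21 in CAST liver and 13 in F1 liver, where the lone control was assumed to vary like the TM samples.

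**Figure D1:**
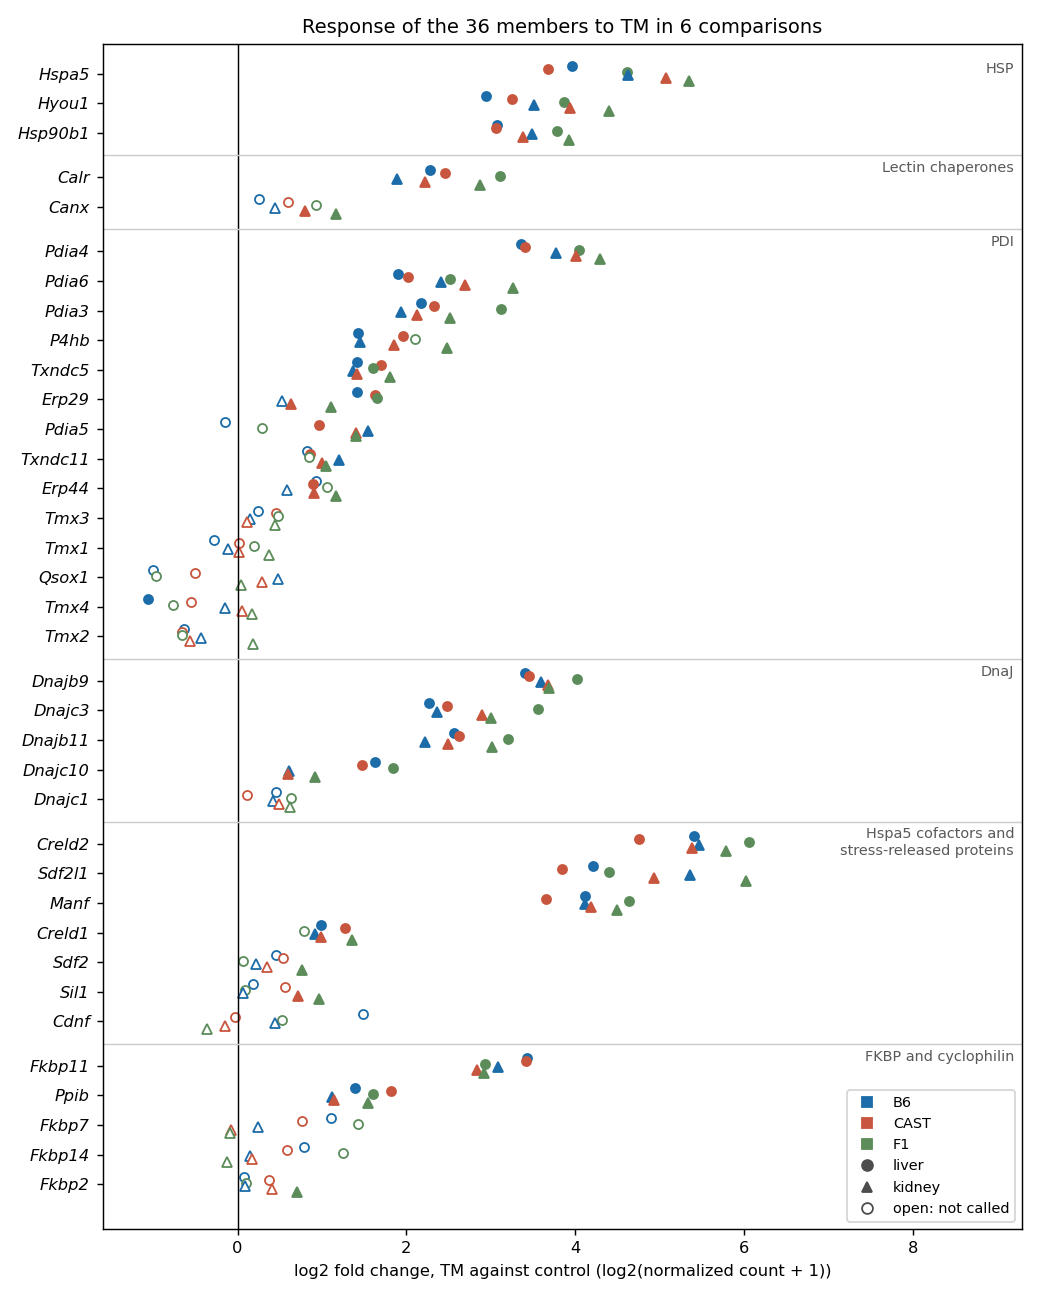
Log2 fold change of each member (rows, by subfamily and sorted by median) between TM and control in liver (circles) and kidney (triangles) of B6, CAST and F1 mice, with filled symbols for members called. HSP members lie between 2.95 and 5.35. Members of the PDI, cofactor and FKBP groups spread from changes of at least 2.84 (Pdia4, Creld2, Fkbp11) down to values around or below 0. The lowest value is -1.06 (Tmx4 in B6 liver).

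The order of the members was much the same in each comparison. Creld2 had the largest log2 fold change of all members in 5 comparisons and Sdf2l1 in F1 kidney. Across the 36 members Spearman's rho between comparisons was 0.836 (B6 liver and F1 kidney) to 0.982 (CAST and F1 kidney). It is a description over genes and not over replicates, and the points share the libraries of their table. By subfamily the median of the members' medians was 3.69 for HSP, 2.59 for DnaJ, 1.54 for the lectins, 1.06 for PDI, 0.99 for the cofactors and 0.50 for the FKBP and cyclophilin group. In each group other than HSP, at least 1 member missed the call in some comparison.

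The 3 HSP members rose in all 6 comparisons. Hspa5 (ENSMUSG00000026864) was the member with the most reads under TM. In liver, its normalized counts were 15197, 5910.0 and 13101 in B6 controls against 154299 and 176063 with TM, and 10918 and 18693 in CAST controls against 199179, 164907 and 184237 with TM. F1 controls gave 7035, 4049.8 and 6192 against 174887 and 107972 with TM. In kidney, they were 7030.1, 3854 and 4629.9 in B6 controls against 165957, 106912 and 107811 with TM, and 2689.5, 3186 and 5946 in CAST controls against 134363, 127383 and 113293 with TM. F1 controls gave 1529, 2039.8 and 2703 against 97478, 79579 and 74342 with TM. Every TM sample lay above every control by a wide margin, and the lowest TM value was 74342 while the highest control was 18693. The log2 fold changes were 3.96 ± 0.46 in B6, 3.67 ± 0.33 in CAST and 4.61 ± 0.71 in F1 for liver and 4.63 ± 0.26 in B6, 5.07 ± 0.31 in CAST and 5.35 ± 0.38 in F1 for kidney (adjusted p at most 6.35e-04), or from 12.8-fold in CAST liver to 40.9-fold in F1 kidney.

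Hsp90b1 (GRP94, ENSMUSG00000020048), the Hsp90 of the ER, folds a narrow set of clients that includes integrins and Toll-like receptors. Liver counts of Hsp90b1 were 7717, 4168 and 6095 in B6 controls against 42959 and 56078 with TM, and 5592 and 4353 in CAST controls against 50900.4, 37150.1 and 36854 with TM. F1 controls gave 4684, 1962 and 3691 against 58645 and 33875 with TM. Kidney counts were 5995, 3355 and 3457 in B6 controls against 56683, 42353 and 41138 with TM, and 3069.5, 4568 and 5149.8 in CAST controls against 40896, 46135 and 43515 with TM. F1 controls gave 1170.2, 2154 and 1934 against 25650.5, 25936 and 25959 with TM. Controls and TM samples were again apart in each table, with log2 fold changes of 3.08 ± 0.37 in B6, 3.06 ± 0.27 in CAST and 3.78 ± 0.61 in F1 in liver and 3.49 ± 0.24 in B6, 3.38 ± 0.24 in CAST and 3.93 ± 0.32 in F1 in kidney (adjusted p at most 8.05e-04). Hyou1 (GRP170) is a large Hsp70 relative that also acts as a nucleotide exchange factor of Hspa5. Hyou1 in liver gave 3709, 2494 and 2318 in B6 controls against 21752 and 21132 with TM, and 2541 and 3291 in CAST controls against 28544, 25679 and 28364 with TM. F1 controls gave 1775, 1109.7 and 1389 against 29187 and 14336 with TM. In kidney it gave 2155, 1390.2 and 1441 in B6 controls against 21311, 16768 and 17847 with TM, and 856, 1507 and 2082 in CAST controls against 17819, 22413 and 24239 with TM. F1 controls gave 372, 901 and 847 against 13157, 15209 and 13391 with TM. Hyou1 rose less than Hspa5 in every comparison, by 2.95 ± 0.33 in B6, 3.25 ± 0.24 in CAST and 3.87 ± 0.52 in F1 for liver and 3.51 ± 0.18 in B6, 3.94 ± 0.31 in CAST and 4.40 ± 0.34 in F1 for kidney on the log2 scale (adjusted p at most 4.81e-04). The log2 ratio of Hspa5 to Hyou1 was higher with TM by 0.42 (CAST liver) to 1.13 (CAST kidney), with no overlap between the groups of any table.

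**Figure D2:**
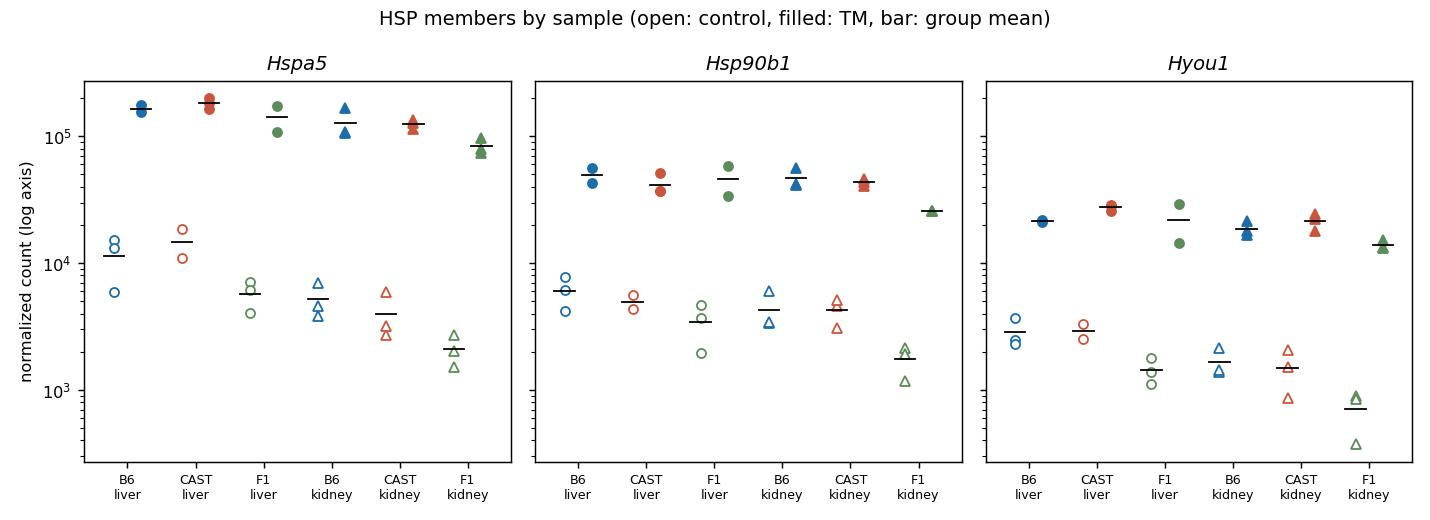
Normalized counts of Hspa5, Hsp90b1 and Hyou1 (log axis) in each sample, open for control and filled for TM, with the group mean as a bar. The TM samples of each group lie above its controls, and for Hspa5 all controls lie at or below 18693 and all TM samples at or above 74342.

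The DnaJ proteins deliver clients to Hspa5 and start its ATPase. Of the 5, Dnajb9 (ERdj4), Dnajb11 (ERdj3), Dnajc3 (P58IPK) and Dnajc10 (ERdj5) rose in all 6 comparisons, and Dnajc1 in none. Dnajb9 also restrains the stress sensor IRE1. Its liver counts were 318, 253 and 480.2 in B6 controls against 3678 and 3485 with TM, and 422 and 292 in CAST controls against 4140.1, 3687 and 3739.7 with TM. F1 controls gave 312, 191 and 386 against 4874 and 4385 with TM. Its kidney counts were 506, 485 and 457 in B6 controls against 6994, 5145 and 5572 with TM, and 478, 379 and 364 in CAST controls against 5703, 4803 and 5135 with TM. F1 controls gave 356, 332 and 436 against 5253, 4467 and 4736 with TM. Its replicates lay close together and its log2 fold change stayed within 3.40 to 4.02, with adjusted p from 1.99e-07 to 2.25e-04. Dnajb11 binds clients in the lumen and hands them to Hspa5. In liver it was at 1677, 743 and 1246 in B6 controls against 6351 and 7351 with TM, and 1068 and 1727 in CAST controls against 9527, 7693 and 7929 with TM. F1 controls gave 1043, 576 and 629 against 8761 and 5065 with TM. The kidney values were 1398, 928 and 932 in B6 controls against 5670.0, 4686 and 4609.7 with TM, and 835, 842 and 1107 in CAST controls against 5355, 5198 and 4956 with TM. F1 controls gave 385, 504 and 523 against 4219.8, 3374 and 3828 with TM. Controls of Dnajb11 were at most 1727 and TM samples at least 3374, and the change ran over 2.22 to 3.20 (adjusted p at most 0.00183).

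Dnajc3, a luminal co-chaperone also known as an inhibitor of the kinase PERK, stood in liver at 5144, 3286 and 4716 in B6 controls against 16636 and 25803 with TM, and 2964 and 3654 in CAST controls against 22501, 15415 and 17937 with TM. F1 controls gave 2832, 1639 and 2249 against 31219 and 21182 with TM. In kidney Dnajc3 stood at 3812, 2938 and 2903 in B6 controls against 18271, 14837 and 16514 with TM, and 1907, 2144 and 2706 in CAST controls against 16416, 16369.6 and 16844 with TM. F1 controls gave 1259, 1740.2 and 1769 against 12465, 11619.6 and 13766 with TM. All groups were apart, with changes of 2.27 to 3.56 (adjusted p at most 0.00292). Dnajc10 is a reductase that opens disulfide bonds of proteins bound for degradation. Dnajc10 in liver read 482, 326 and 474 in B6 controls against 1288 and 1314 with TM, and 524 and 599 in CAST controls against 1813, 1315 and 1596 with TM. F1 controls gave 460.2, 265 and 486 against 1903 and 1023 with TM. In kidney it read 920.0, 803 and 876 in B6 controls against 1527, 1178 and 1266 with TM, and 1440.1, 1242 and 1212 in CAST controls against 2136, 1918 and 1816 with TM. F1 controls gave 577, 832 and 785 against 1519.7, 1181 and 1406 with TM. The groups did not overlap in either tissue, but the change was larger in liver (1.63 ± 0.29 in B6, 1.48 ± 0.22 in CAST and 1.84 ± 0.43 in F1) than in kidney (0.60 ± 0.13 in B6, 0.59 ± 0.16 in CAST and 0.91 ± 0.22 in F1), a difference tested with the tissues. Dnajc1 is a membrane protein that sits near the ribosome. Its liver counts ran 342, 292 and 387 in B6 controls against 445 and 482 with TM, and 497 and 492 in CAST controls against 635, 484 and 499 with TM. F1 controls gave 445, 235 and 363 against 657 and 414 with TM. Its kidney counts ran 651, 632 and 600.3 in B6 controls against 816, 843 and 864 with TM, and 543, 619 and 602 in CAST controls against 861, 751 and 875 with TM. F1 controls gave 315, 489.9 and 498 against 601, 673 and 691 with TM. TM means were higher in each comparison, the log2 changes were 0.11 to 0.63, and none passed the test, since the adjusted p of 0.015 in B6 kidney went with a change under 1.5-fold.

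Among the cofactors and stress-released proteins, Creld2, Sdf2l1 and Manf rose in all 6 comparisons and each has a relative with smaller changes. Creld2, a secreted protein with thioredoxin-like motifs, had liver counts of 1538, 358 and 878 in B6 controls against 35656 and 31145 with TM, and 1491 and 1329.7 in CAST controls against 38983, 38840.3 and 36234 with TM. F1 controls gave 478, 371 and 392 against 38604 and 19403 with TM. Its kidney counts were 291, 188 and 226 in B6 controls against 13122, 8431 and 9707 with TM, and 298, 207 and 344 in CAST controls against 12194, 11882 and 10823 with TM. F1 controls gave 119.6, 137 and 216 against 8972, 7084 and 9563 with TM. Creld2 rose by 5.41 ± 0.51 in B6, 4.75 ± 0.23 in CAST and 6.05 ± 0.46 in F1 in liver and 5.46 ± 0.19 in B6, 5.39 ± 0.21 in CAST and 5.79 ± 0.26 in F1 in kidney on the log2 scale, from 27-fold to 66.5-fold (adjusted p at most 2.25e-04), and ranked between 5 and 19 among all genes tested by fold change in the 6 comparisons. Creld1, its membrane-bound relative, read in liver 379, 315 and 361 in B6 controls against 737 and 659 with TM, and 281 and 523 in CAST controls against 808, 863 and 1154 with TM. F1 controls gave 320.1, 196 and 251 against 610.1 and 309.5 with TM. In kidney Creld1 read 269, 172 and 210.3 in B6 controls against 419.6, 379 and 414 with TM, and 201, 212 and 217 in CAST controls against 379, 422 and 462 with TM. F1 controls gave 112, 138 and 126 against 338, 333 and 295 with TM. It was called higher in 5 comparisons with changes of 0.79 to 1.36, and in F1 liver, where the groups overlapped, its adjusted p was 0.361.

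Sdf2l1 and Sdf2 are close relatives of the ER lumen, and Sdf2l1 joins Dnajb11 in a complex that keeps clients from aggregating. Sdf2l1 in liver was at 653, 212 and 284 in B6 controls against 8302 and 4796 with TM, and 314 and 497 in CAST controls against 5287, 6901 and 5061 with TM. F1 controls gave 230.1, 196 and 129 against 5171 and 2818 with TM. In kidney Sdf2l1 was at 122, 56.1 and 68.3 in B6 controls against 4222, 2518 and 3222 with TM, and 105, 76 and 134 in CAST controls against 4030.4, 2799 and 2788 with TM. F1 controls gave 31.2, 33.6 and 52.4 against 2726, 2200.3 and 2762 with TM. It rose from low control values by 4.21 ± 0.46 in B6, 3.85 ± 0.26 in CAST and 4.40 ± 0.42 in F1 in liver and by 5.37 ± 0.27 in B6, 4.93 ± 0.24 in CAST and 6.03 ± 0.23 in F1 in kidney (adjusted p at most 4.40e-04). Sdf2 had liver counts of 383, 220.5 and 376 in B6 controls against 511 and 367 with TM, and 323 and 409 in CAST controls against 450.3, 622 and 526 with TM. F1 controls gave 279, 239 and 298 against 379 and 210.4 with TM. Sdf2 had kidney counts of 387, 325 and 343 in B6 controls against 386, 392 and 444 with TM, and 469, 323 and 315 in CAST controls against 539, 411 and 442 with TM. F1 controls gave 208, 255 and 225 against 451, 368 and 357 with TM. The Sdf2 groups overlapped in 4 of 6 comparisons, and Sdf2 was called higher only in F1 kidney (0.77 ± 0.19, adjusted p 0.0278). On the log2 scale the ratio of Sdf2l1 to Sdf2 was higher with TM by 3.31 (CAST liver) to 5.26 (F1 kidney), with no overlap between groups.

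Manf is a small ER protein that binds Hspa5 and is secreted under ER stress, and Cdnf is its relative. Liver counts of Manf were 1541, 417 and 1121 in B6 controls against 15701 and 15339 with TM, and 1039 and 2186 in CAST controls against 17889, 18957 and 19971 with TM. F1 controls gave 529, 371 and 577 against 14634 and 9899.9 with TM. Kidney counts of Manf were 364, 262 and 372 in B6 controls against 5862, 5467 and 5850.4 with TM, and 413, 260.4 and 394 in CAST controls against 7649, 6506 and 5194 with TM. F1 controls gave 226, 164 and 217 against 4915, 3944 and 4789 with TM. The change in Manf was 4.11 ± 0.48 in B6, 3.65 ± 0.31 in CAST and 4.64 ± 0.44 in F1 in liver and 4.12 ± 0.14 in B6, 4.19 ± 0.23 in CAST and 4.49 ± 0.21 in F1 in kidney (adjusted p at most 6.30e-04). Cdnf was close to the filter, in liver at 1, 16.3 and 8.23 in B6 controls against 13 and 25.3 with TM, and 18.2 and 9.08 in CAST controls against 12.7, 12.9 and 12.3 with TM. F1 controls gave 15.8, 9.21 and 4.9 against 10.4 and 17.4 with TM. Its kidney values were 16.1, 24.3 and 17.1 in B6 controls against 27.9, 29 and 21.5 with TM, and 35.7, 23.6 and 14.1 in CAST controls against 17.9, 22.8 and 21.5 with TM. F1 controls gave 36.4, 17.6 and 18 against 25.7, 13.3 and 15.3 with TM. The Cdnf groups overlapped in each comparison, the log2 changes ran from -0.36 to 1.49, none was called, and the values lay between 1 and 36.4 normalized counts. The log2 ratio of Manf to Cdnf was higher with TM by 2.62 (B6 liver) to 4.85 (F1 kidney). Its groups overlapped in B6 liver and in no other table. Sil1, a nucleotide exchange factor that frees Hspa5 of ADP, had liver counts of 691, 604 and 722 in B6 controls against 863 and 667 with TM, and 339 and 407 in CAST controls against 506, 508 and 640.1 with TM. F1 controls gave 438, 297 and 376 against 497 and 302 with TM. Kidney counts of Sil1 were 575, 486 and 497 in B6 controls against 529, 543 and 551 with TM, and 209.6, 258 and 221 in CAST controls against 375, 398 and 359 with TM. F1 controls gave 179, 235 and 218 against 507, 368 and 365 with TM. It was called higher in CAST kidney (0.72 ± 0.16, adjusted p 0.0178) and F1 kidney (0.96 ± 0.21, adjusted p 0.0155), while in B6 kidney the change was 0.06 ± 0.11 and the groups overlapped.

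**Figure D3:**
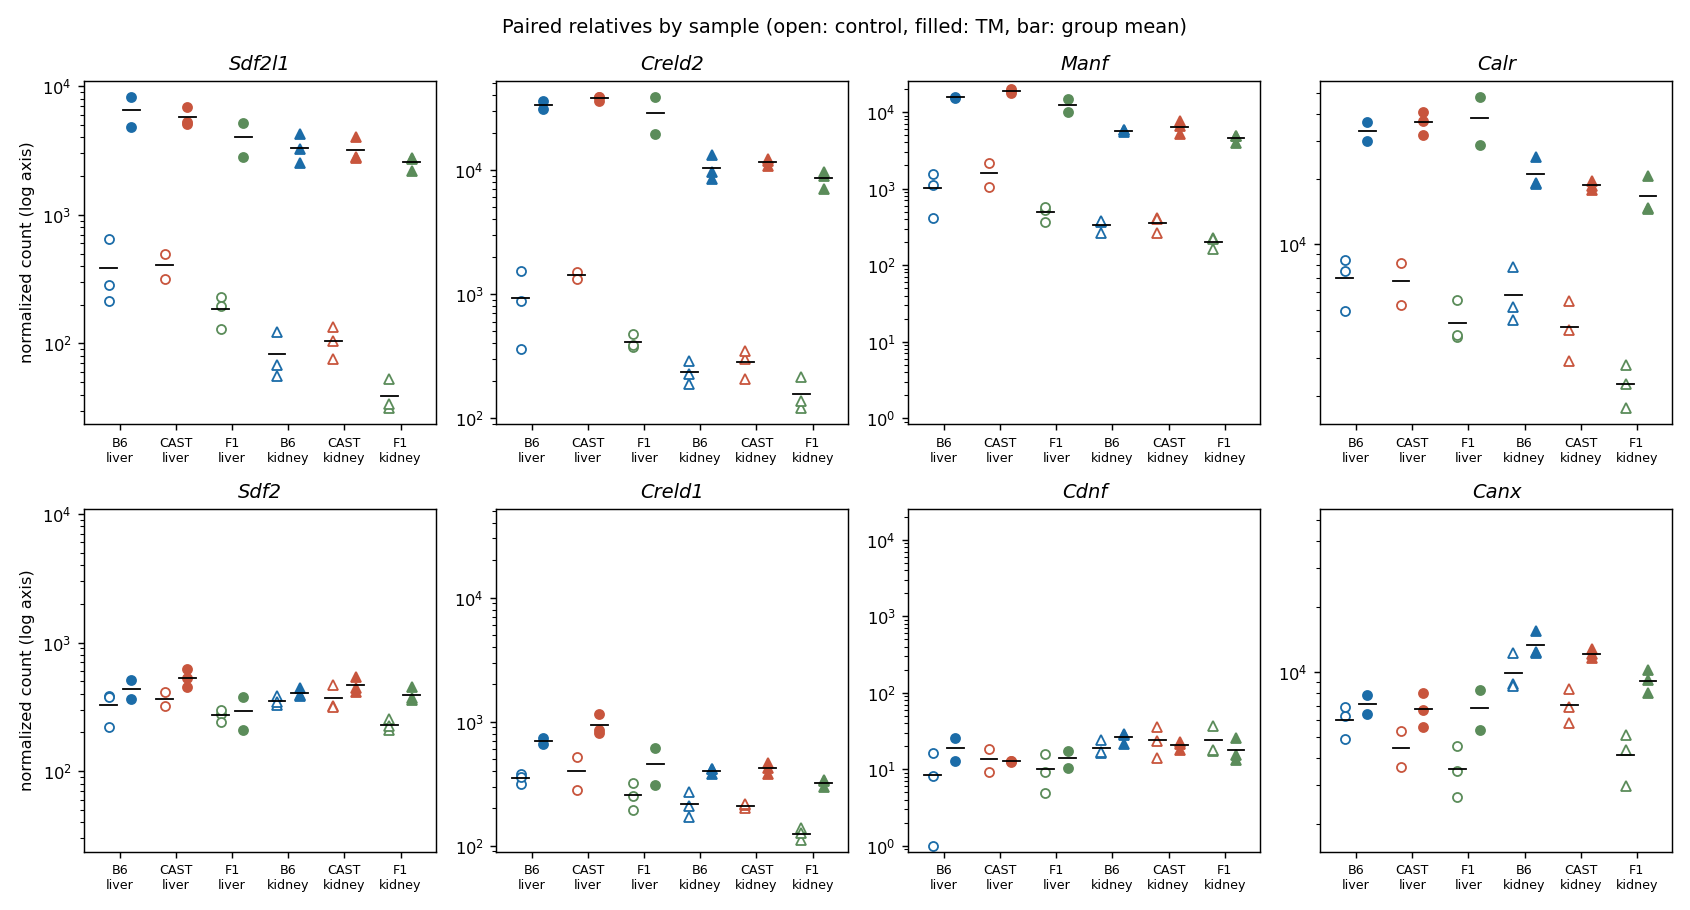
Normalized counts (log axis, shared within a column) by sample for Sdf2l1, Creld2, Manf and Calr (upper row) and for their relatives Sdf2, Creld1, Cdnf and Canx (lower row), open for control and filled for TM, with group means as bars. The upper members separate in each table, for Sdf2l1 from at most 653 in controls to at least 2200.3 with TM, while Sdf2 stays between 208 and 622 throughout.

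The lectin chaperones Calr (soluble) and Canx (membrane-bound) hold glycoproteins that carry a single glucose. Calr counts in liver were 8482, 4926 and 7566 in B6 controls against 29786 and 36617 with TM, and 5278 and 8211 in CAST controls against 36894, 31886 and 40600.4 with TM. F1 controls gave 5545, 3727 and 3807 against 47901 and 28764 with TM. In kidney they were 7864, 4492 and 5145 in B6 controls against 25126, 18950.2 and 19189.5 with TM, and 2911, 4021 and 5497 in CAST controls against 18612, 19638 and 17764 with TM. F1 controls gave 1753, 2788 and 2282 against 20595, 14570.5 and 14762 with TM. Calr rose in all 6 comparisons, by 1.88 to 3.11 (adjusted p at most 0.00318). Canx counts in liver were 6266, 4887 and 6915 in B6 controls against 6430.4 and 7862 with TM, and 3642 and 5322 in CAST controls against 7979.7, 5599 and 6693 with TM. F1 controls gave 4567, 2666 and 3507 against 8276 and 5383 with TM. For Canx in kidney they were 12240.5, 8759 and 8600.3 in B6 controls against 15374, 12199 and 12304 with TM, and 5836, 6886 and 8391 in CAST controls against 12769.6, 11573 and 12085 with TM. F1 controls gave 2983, 5109 and 4375 against 10226, 9143 and 7997 with TM. Canx was called higher in CAST kidney (0.80 ± 0.20, adjusted p 0.0318) and F1 kidney (1.16 ± 0.31, adjusted p 0.0394) and in no liver comparison, where its changes were 0.25 ± 0.32 in B6, 0.60 ± 0.26 in CAST and 0.93 ± 0.51 in F1. On the log2 scale the ratio of Calr to Canx was higher with TM by 1.42 to 2.18, with no overlap between the groups of any table.

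Within the PDI family 4 of the 14 members were called higher in all 6 comparisons (Pdia4, Pdia6, Pdia3 and Txndc5), 5 in none (Tmx1, Tmx2, Tmx3, Tmx4 and Qsox1), and the rest in 3 to 5. Pdia4, an isomerase with an extra catalytic domain, responded most. Its liver counts read 5118, 2508 and 4025 in B6 controls against 33244 and 43778 with TM, and 2829 and 3486 in CAST controls against 38618, 27656 and 34256 with TM. F1 controls gave 2177, 1563 and 1693 against 40358 and 21866 with TM. Its kidney counts read 2096, 1376 and 1398 in B6 controls against 27414, 19587 and 19437 with TM, and 861, 1389 and 1454 in CAST controls against 18695, 20684 and 18733 with TM. F1 controls gave 492, 862 and 825 against 15235, 13240.0 and 13253 with TM. The change of Pdia4 was 3.36 ± 0.38 in B6, 3.40 ± 0.26 in CAST and 4.05 ± 0.53 in F1 in liver and 3.78 ± 0.20 in B6, 4.01 ± 0.23 in CAST and 4.30 ± 0.28 in F1 in kidney (adjusted p at most 5.16e-04). Pdia3, the isomerase that Calr and Canx recruit to glycoproteins, had in liver 4953, 3566 and 4119 in B6 controls against 17377 and 20334 with TM, and 3256 and 3971 in CAST controls against 21382, 16176 and 16998 with TM. F1 controls gave 3039, 1713 and 2559 against 25895 and 16495 with TM. In kidney Pdia3 had 5134, 3691 and 3374 in B6 controls against 18273, 13894 and 14265 with TM, and 2757, 3870.3 and 4484 in CAST controls against 15080.3, 16168 and 16390.2 with TM. F1 controls gave 1378, 2616 and 2188 against 10972, 12203 and 11001 with TM. Its groups were apart in each table, with changes of 1.94 to 3.12 (adjusted p at most 0.00209). P4hb (PDI itself), which is also a subunit of collagen prolyl hydroxylase, was in liver at 20231, 14135 and 20028 in B6 controls against 50762 and 45301 with TM, and 13731 and 13566 in CAST controls against 54014, 51929 and 52821 with TM. F1 controls gave 12327, 7715 and 11532 against 60578 and 32435 with TM. In kidney P4hb was at 8777, 7519 and 7139.9 in B6 controls against 25298, 18762 and 20414 with TM, and 4781, 4890.1 and 5506 in CAST controls against 19918, 17297 and 17668 with TM. F1 controls gave 2088, 3895 and 3644 against 19761, 16114 and 16149 with TM. P4hb rose by 1.45 ± 0.16 in B6, 1.85 ± 0.19 in CAST and 2.48 ± 0.34 in F1 in kidney and by 1.42 and 1.95 in B6 and CAST liver, while in F1 liver a change of 2.10 ± 0.70 did not pass (adjusted p 0.0763).

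Pdia6, which binds Hspa5 clients and restrains IRE1, rose by 1.90 to 3.26, and Txndc5, with several thioredoxin domains, by 1.36 to 1.81. Txndc11, a membrane thioredoxin, was called higher in 4 comparisons (0.83 to 1.21), and Erp44, which retrieves oxidases and immunoglobulin subunits from the early secretory pathway, in 3 (0.58 to 1.17). Erp29 lacks the catalytic cysteine motif and acts as an escort. Liver counts of Erp29 were 548, 349 and 471 in B6 controls against 1346 and 1067 with TM, and 419 and 543 in CAST controls against 1464, 1528 and 1446 with TM. F1 controls gave 341, 203 and 318 against 1251 and 620.5 with TM. Its counts in kidney were 995, 762 and 779 in B6 controls against 1387, 1103 and 1159 with TM, and 1116, 907 and 1097 in CAST controls against 1887, 1517 and 1457 with TM. F1 controls gave 445, 513 and 554 against 1244, 925 and 1109 with TM. TM and control samples of Erp29 were apart in all tables, and it was called higher in 5, all but B6 kidney, where a change of 0.53 ± 0.14 was under 1.5-fold. Pdia5 showed another pattern. In liver Pdia5 had 796, 608 and 717 in B6 controls against 679 and 593 with TM, and 395 and 348 in CAST controls against 764, 770.3 and 645 with TM. F1 controls gave 539, 295 and 496 against 780.2 and 351 with TM. In kidney it had 138, 137 and 126 in B6 controls against 487, 314 and 389.7 with TM, and 173, 150.3 and 129 in CAST controls against 357, 439 and 399.6 with TM. F1 controls gave 93.6, 146 and 95.5 against 237, 301 and 349 with TM. Kidney groups were apart, with changes of 1.54 ± 0.17 in B6, 1.40 ± 0.18 in CAST and 1.41 ± 0.24 in F1, and CAST liver rose by 0.96 ± 0.21 (adjusted p 0.0103), while in B6 and F1 liver, at -0.15 ± 0.28 and 0.29 ± 0.44, the groups overlapped.

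The membrane-bound TMX proteins and the secreted sulfhydryl oxidase Qsox1 were not called higher in any comparison. Tmx4 in liver was at 409, 406 and 595 in B6 controls against 209 and 232 with TM, and 259.8 and 233 in CAST controls against 174, 144 and 185 with TM. F1 controls gave 400.1, 209.5 and 309 against 181 and 166 with TM. In kidney Tmx4 was at 687, 658 and 661 in B6 controls against 615, 587 and 602 with TM, and 609.9, 533 and 588 in CAST controls against 648, 594 and 552 with TM. F1 controls gave 273, 426 and 374 against 421, 342 and 436 with TM. All Tmx4 TM samples were below the controls of their table in the livers and in B6 kidney, and the fall passed the test in B6 liver (-1.06 ± 0.29, adjusted p 0.0433) but not in CAST liver (-0.55 ± 0.24, 0.124) or F1 liver (-0.77 ± 0.41, 0.364). Tmx2 had liver counts of 268, 159 and 278 in B6 controls against 163 and 130.5 with TM, and 163 and 333 in CAST controls against 149, 151 and 142 with TM. F1 controls gave 384, 256 and 351 against 276 and 155 with TM. For Tmx2 the kidney counts were 756, 588 and 593 in B6 controls against 523, 446 and 464 with TM, and 551, 501 and 579 in CAST controls against 374, 407 and 328 with TM. F1 controls gave 374, 663 and 638 against 682, 632 and 532 with TM. Its TM samples were below the controls in CAST liver, B6 kidney and CAST kidney, the last 2 with adjusted p of 0.0449 and 0.0474 at changes under 1.5-fold (-0.43 and -0.56). Qsox1 makes disulfide bonds with molecular oxygen. Liver counts of Qsox1 were 5120.4, 3312 and 4108 in B6 controls against 2338 and 1802 with TM, and 3869 and 4632 in CAST controls against 2684, 3042 and 3264 with TM. F1 controls gave 3640.4, 1842 and 2980.3 against 2361 and 821 with TM. In kidney Qsox1 was far lower, at 165, 170.3 and 149 in B6 controls against 265, 202 and 212 with TM, and 144, 186 and 176 in CAST controls against 179, 219 and 218 with TM. F1 controls gave 169, 105 and 117 against 134, 152 and 111 with TM, and the tissue tables were scaled apart. The change of Qsox1 was 0.499-fold in B6 liver, -0.50 ± 0.22 on the log2 scale in CAST liver, -0.96 ± 0.51 in F1 liver and 0.48 ± 0.15 in B6, 0.28 ± 0.18 in CAST and 0.04 ± 0.23 in F1 in kidney, none of them called, though TM samples of Qsox1 were below the controls in B6 and CAST liver and above them in B6 kidney. Tmx1 ran over -0.28 to 0.37 and Tmx3 over 0.12 to 0.48.

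Of the prolyl isomerases, Fkbp11 and Ppib rose in all 6 comparisons. Fkbp11, a membrane-anchored FKBP abundant in secretory cells, had liver counts of 198, 68.4 and 162 in B6 controls against 1661 and 1193 with TM, and 155 and 89.9 in CAST controls against 1251, 1391 and 1171 with TM. F1 controls gave 177, 122 and 140.0 against 1476 and 830.2 with TM. In kidney Fkbp11 was scarce without TM, at 23.6, 22.5 and 18.9 in B6 controls against 276, 149 and 168 with TM, and 85.8, 47.2 and 48.9 in CAST controls against 473, 388 and 415 with TM. F1 controls gave 49.4, 17.6 and 33.6 against 259, 209.9 and 253 with TM. Its change was 3.43 ± 0.43 in B6, 3.41 ± 0.26 in CAST and 2.93 ± 0.41 in F1 in liver and 3.09 ± 0.25 in B6, 2.84 ± 0.25 in CAST and 2.91 ± 0.33 in F1 in kidney (adjusted p at most 9.81e-04). Ppib (cyclophilin B), which serves collagen folding among other clients, rose by 1.12 to 1.82. Fkbp2 had the lowest median of the group. In liver it was at 316, 169 and 321 in B6 controls against 309 and 238 with TM, and 183 and 169 in CAST controls against 201, 240.1 and 246 with TM. F1 controls gave 203, 143 and 184 against 244 and 145 with TM. In kidney Fkbp2 was at 480.4, 343 and 336 in B6 controls against 484, 357 and 387 with TM, and 297, 208 and 234 in CAST controls against 373, 315 and 289 with TM. F1 controls gave 174, 191 and 184 against 344, 268 and 291 with TM. It was called higher only in F1 kidney (0.71 ± 0.18, adjusted p 0.0356).

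Fkbp7 and Fkbp14, calcium-binding FKBP proteins, had low counts. Fkbp7 in liver was at 35.1, 15.2 and 26.5 in B6 controls against 46.1 and 61.7 with TM, and 12.5 and 30 in CAST controls against 33.4, 36.9 and 30.9 with TM. F1 controls gave 15.8, 13.8 and 19.6 against 45.8 and 44.8 with TM. In kidney it was at 64.3, 38.4 and 43.1 in B6 controls against 61.9, 65.9 and 43.9 with TM, and 38.1, 35.8 and 19.7 in CAST controls against 39.4, 34.7 and 16.5 with TM. F1 controls gave 52, 26.7 and 21.1 against 31.7, 24.9 and 30.6 with TM. Fkbp14 in liver was at 73.1, 76 and 109 in B6 controls against 112 and 192 with TM, and 40.3 and 56.3 in CAST controls against 84.6, 75.7 and 58.7 with TM. F1 controls gave 40, 66.8 and 43.1 against 117 and 117 with TM. Each liver TM sample of both genes exceeded the controls of its table, while in kidney the groups overlapped other than for Fkbp14 in CAST. Fkbp14 in kidney was at 112, 132 and 137 in B6 controls against 123, 171 and 132 with TM, and 87, 97.9 and 90.3 in CAST controls against 100.3, 108 and 103 with TM. F1 controls gave 91, 105 and 112 against 93.4, 85.4 and 103 with TM. Neither was called in any comparison, with liver changes of 1.11 ± 0.45 in B6, 0.76 ± 0.42 in CAST and 1.42 ± 0.59 in F1 for Fkbp7 and 0.79 ± 0.35 in B6, 0.59 ± 0.30 in CAST and 1.25 ± 0.46 in F1 for Fkbp14.

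Whether the response differed between tissues was tested by the interaction of tissue and treatment. Liver and kidney samples were treated as independent, although both tissues appear to come from the same mice. With all genotypes in 1 fit, 8 of the 36 members passed, 4 with the higher log2 fold change in liver (4.29% of all genes tested) and 4 with the higher in kidney (10.1%), and the members' median difference was -0.11. The log2 fold change was higher in kidney for Sdf2l1 (liver minus kidney -1.29 ± 0.31, adjusted p 0.00357), Qsox1 (-1.09 ± 0.24, 0.00169), Pdia5 (-1.08 ± 0.22, 6.63e-04) and Tmx4 (-0.82 ± 0.17, 0.00114). For Qsox1 and Tmx4 the means over genotypes were -0.82 and -0.80 in liver and 0.27 and 0.02 in kidney, so the larger change was a fall in liver. The liver response was higher for Dnajc10 (0.94 ± 0.20, 0.00104), Erp29 (0.81 ± 0.20, 0.00475), Fkbp14 (0.81 ± 0.20, 0.00577) and Fkbp7 (1.07 ± 0.34, 0.0283). All 8 differences had the same sign in the 3 genotypes. The members were chosen by the mean over these genotypes, so this agreement is partly set by the choice. Hspa5 (-0.93 ± 0.33, 0.0586) and Pdia6 (-0.64 ± 0.23, 0.0632) were next in order and did not pass.

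Within single genotypes a call also required the gene to be called in 1 of the tissues, and only Pdia5 in B6 was called, at -1.69 ± 0.27 (adjusted p 0.00666), in a test that called 2.55% of genes with the higher response in kidney and 0.852% in liver. Qsox1 had an adjusted p of 0.0153 in B6 (-1.48 ± 0.28) but was called in neither B6 tissue alone. In CAST and F1 no member passed (1.02% and 0.254% of genes with the higher response in liver, 1.58% and 0.938% in kidney). There, 7 and 6 members had an unadjusted p below 0.05, beside 15.4% and 12.4% of all genes. DESeq2 on the recovered reads called 5 members in B6, 2 in CAST and 1 in F1, and edgeR 0 in CAST and F1. The shares of all genes called by these programs are not given here. Without the 5 libraries, which leaves 1 liver TM sample in B6 and in F1, 5 members passed in B6 and 5 in F1. Among the smallest p were those of Erp29 in CAST (0.99 ± 0.26, adjusted p 0.06) and Sdf2l1 in F1 (-1.63 ± 0.46, 0.12). Without B6 liver control 2 the count in B6 was 4 in place of 1. Fkbp7 lost its call over all genotypes without the 5 libraries (0.75, adjusted p 0.12), with the replicate block (0.09), with array weights (0.79, 0.12), without the 3 liver controls with pancreatic reads (0.89, 0.096) and without B6 liver TM 3, CAST liver control 2 or CAST kidney TM 3 (adjusted p 0.051 to 0.091).

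**Figure D4:**
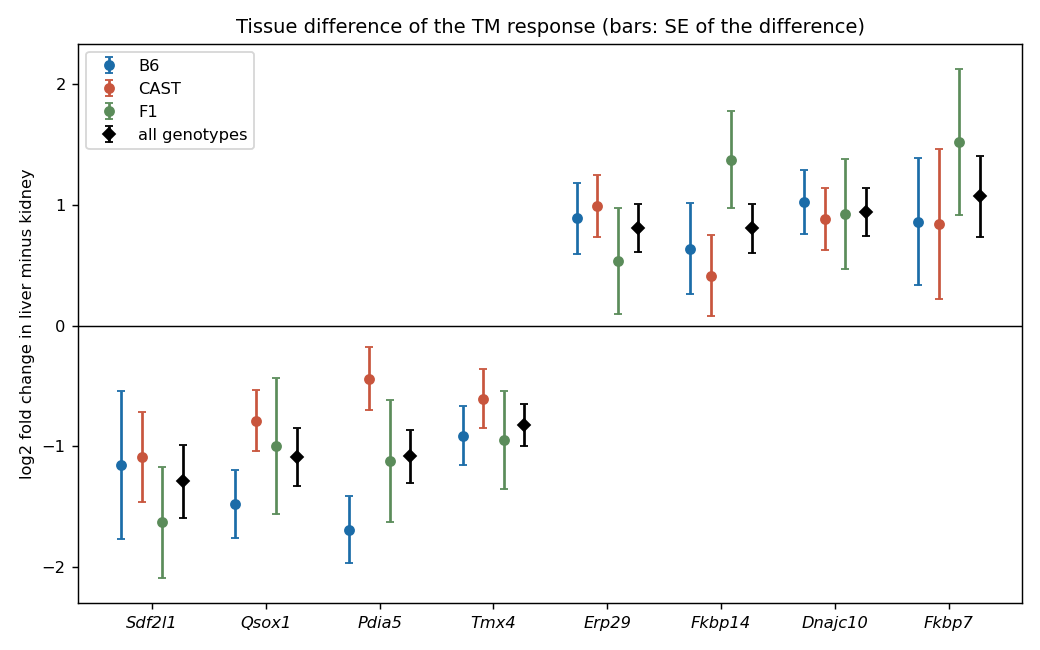
The liver response minus the kidney response (log2 fold changes), with its SE, for the 8 members that passed the test over all genotypes, shown for B6, CAST and F1 and for all genotypes together (diamonds). Sdf2l1, Qsox1, Pdia5 and Tmx4 lie below 0 and Erp29, Fkbp14, Dnajc10 and Fkbp7 above 0 in each genotype, whose mean was used to choose them.

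Whether the response differed between genotypes was tested by limma's F-test on both interaction terms. In neither tissue did a member pass, and 0 of 20157 genes passed in liver and 17 of 22767 (0.0747%) in kidney. An unadjusted p below 0.05 was found for 1 member in liver (3.78% of all genes) and 5 in kidney (5.42%). In kidney edgeR called 0 members and DESeq2 called 1, Sil1 (adjusted p 0.030), and their shares of all genes are not given here. Sil1 had the smallest p in limma too (unadjusted 0.00218, adjusted 0.363), with a response above that of B6 by 0.66 ± 0.22 in CAST and by 0.90 ± 0.22 in F1. Dnajb11, P4hb and Tmx2 followed in kidney, with F1 minus B6 of 0.80 ± 0.27, 1.03 ± 0.34 and 0.61 ± 0.27 (adjusted p 0.828, 0.829 and 0.903). In liver the smallest p were those of Dnajc3, Pdia5, Pdia3 and Creld2 (adjusted p 1.00 for each). The largest terms among these 4 were F1 minus B6 for Dnajc3, at 1.29 ± 0.51, and CAST minus B6 for Pdia5, at 1.11 ± 0.47. The F1 response was above that of B6 in 30 of 36 members in liver and 29 in kidney, with medians of 0.31 and 0.46. These counts share the B6 samples and rest on F1 reads that were aligned by another program than the parental reads. How often F1 exceeded B6 among genes at large is not given here, so the counts cannot be read as particular to the members. Taken over each table's tested genes, the median response stood at 0.085 for B6 liver and 0.205 for F1 liver. For kidney these medians stood at -0.015 (B6) and -0.131 (F1).

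The share of all reads on the 36 members rose from 0.226% to 0.770% in controls, 0.0678% in F1 liver control 2 aside, to 2.04% to 6.12% with TM. With Gm10800 left out, F1 liver control 2 stood at 0.176%. Liver TM libraries gave 3.54% to 6.12% and kidney TM libraries 2.04% to 3.20%. Hspa5 alone made up 6.63% to 21.5% of the members' reads in controls and 29.9% to 38.3% with TM. Levels between genes were compared as mean normalized counts per 1000 coding bases. In controls the highest levels were those of P4hb in liver (6892 to 11874 by genotype) and Canx in kidney (2344 to 5565), and with TM that of Hspa5 in each table (42646 to 93015). Cdnf had the lowest level of all members in each control group (15.2 to 43.6).

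**Figure D5:**
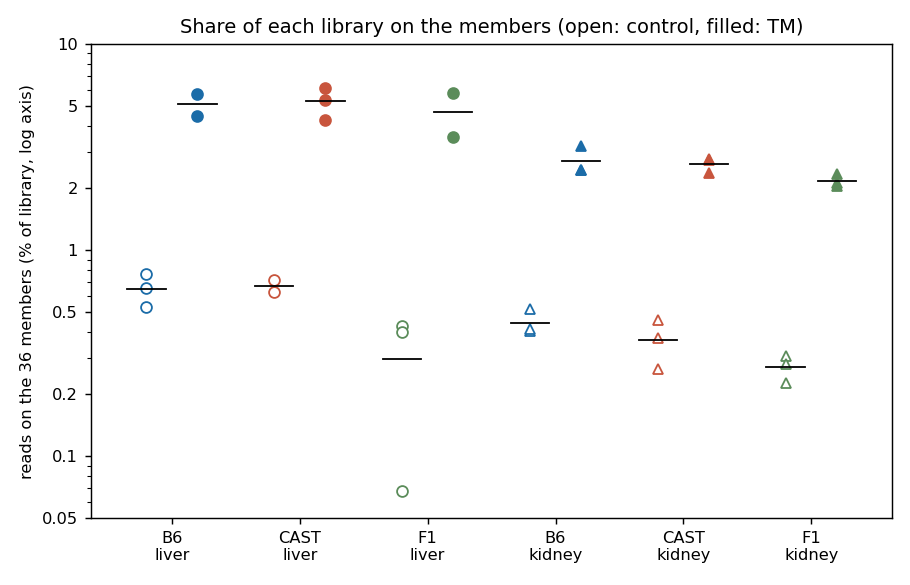
Reads on the 36 members as a percentage of each library (log axis), open for control and filled for TM, with group means as bars. TM libraries lie between 2.04% and 6.12%, above all controls, which lie at or below 0.770%, and F1 liver control 2 is lowest at 0.0678%.

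Some members share sequence with a processed pseudogene in the annotation, and their listed values differed between parental and F1 tables. Genotype, reference genome and alignment program change together between these tables and cannot be told apart. Calr-ps, 92.5% identical to Calr over the aligned bases, was listed at 11.2% to 14.8% of the value of Calr in the 4 parental tables, and had means of 2.16 and 0.68 in the F1 tables. Gm6568 was at 19.2% to 31.2% of Dnajb9 in the parental tables and at 4.07% to 8.66% in F1. Gm5499, 99.4% identical to Tmx2, was at 85.2% to 113% of Tmx2 in the parental tables and 24.7% to 32.1% in F1. With the copy added, the log2 fold change of Calr moved most in CAST liver, from 2.46 to 2.47, that of Dnajb9 in F1 kidney, from 3.69 to 3.65, and that of Tmx2 in B6 liver, from -0.64 to -0.84. Levels of these 3 members are thus uncertain between parental and F1 tables. Erp29 overlaps Naa25 on the opposite strand over 1586 bases, and whether strand was used in counting was not stated. With Naa25 added, the log2 fold change of Erp29 went from 1.42, 1.63 and 1.65 to 1.07, 1.26 and 1.23 in B6, CAST and F1 liver. In kidney it went from 0.53, 0.64 and 1.11 to 0.58, 0.67 and 0.98. The tissue difference of Erp29 was thus smaller with Naa25 added, and it was not tested in that form. Other members overlap genes on the opposite strand too, among them Fkbp14 (Plekha8, 208 bases), Txndc5 (Bmp6, 224) and Sdf2 (Supt6, 242). Plekha8 averaged 265 (CAST liver) to 702 (B6 kidney), above Fkbp14, and its effect was not computed. With Supt6 added, Sdf2 went from 0.21, 0.34 and 0.77 to 0.54, 0.69 and 0.79 in B6, CAST and F1 kidney. In liver it went from 0.45, 0.54 and 0.06 to 0.40, 0.52 and 0.33.

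For comparison, 3 lists of related genes were counted in full, of which the first holds other ER folding enzymes. Of its 30 genes, 25 to 27 were tested in a comparison and 6 to 9 were called higher. Nucb2, a calcium-binding protein, Ero1l and Ero1lb, the oxidases that recharge PDI, the glucosidase Mogs and the collagen prolyl hydroxylase P3h1 were called higher in all 6, with median changes of 3.95, 2.03, 2.16, 1.89 and 1.87, and 19 were called higher in none, of which Agr3 and Pdia2 passed the filter nowhere. Uggt2, which senses the fold of glycoproteins, had a median of 1.95, and Gpx7 and Prdx4, peroxidases of the ER, were nearest to 0 (-0.02 and -0.06). Among 21 relatives of the members in the cytosol and mitochondria, 0 to 2 were called higher in liver comparisons and 3 to 7 in kidney, and none in all 6. Glrx, a cytosolic glutaredoxin, was lower in all 6 (median -1.89). Hspa9, the mitochondrial Hsp70, was higher in 4 (1.04), Fkbp4 lower in 3 (-1.01) and Hsph1 higher in 3 (0.87), while Hsp90aa1 and Fkbp1a had medians of 0.04 and 0.06. Of 12 sensors and factors of the unfolded protein response, 5 to 7 were called higher in a comparison. Ddit3 (CHOP), Atf4, Eif2ak3 and Atf6 were higher in all 6, with medians of 6.42, 3.06, 2.41 and 2.34, and the NF-Y subunits Nfyb and Nfyc had medians of 0.07 and -0.11.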

How the data were processed

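RNA from liver and kidney was sequenced as total RNA depleted of ribosomal RNA, in 33 samples of 12 groups. The authors aligned parental reads with Bowtie2 2.2.9 to each strain's own genome and used STAR 2.6 with a masked B6 genome for F1 reads, removed outlying samples and normalized read counts by DESeq2 1.28.1 size factors within each genotype and tissue, so the 6 deposited tables are scaled apart. The counting program was not given in the sources used here, and the deposited values are thus a signal, counts divided by a size factor, and 100% of values came back as whole reads within 0.01 when divided by the smallest value above 0. Levels are these deposited normalized counts, and fold changes are on the log2(normalized count + 1) scale, which understates changes of low genes.

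TM and control were compared in each table with limma 3.58.1 (R 4.3.3, mean-variance trend) over genes averaging 5 or more, with Benjamini-Hochberg adjustment over all genes. Tissue interactions were fitted per genotype and over all groups, and genotype interactions per tissue, as differences of changes within tables, in which the scale of a table cancels. Alternatives were tests of the recovered reads by DESeq2 1.42.0 or edgeR 4.0.16, TMM scaling, pseudocounts of 0.5 and 5, other filters, centring, no trend, array weights, the replicate block and leaving out libraries, of which leaving out 3 liver controls was added after seeing the data. The fits were tested on simulated data. Members and lists were chosen with earlier results of these data known. Replicates of a tissue were taken as separate mice. By the study's count of mice per genotype, both tissues appear to come from the same mice. The tissue tests nevertheless treated liver and kidney samples as independent. Replicate numbers paired B6 kidney and CAST kidney samples (same-number correlations of deviations 0.252 to 0.477 and 0.252 to 0.533) but not F1 kidney (lowest -0.03), and liver groups share only 2 numbers. Per-sample values are printed for the HSP members, the highest and lowest median in each subfamily, pairs of relatives, and the 4 smallest p of each interaction test. Coding lengths came from GENCODE vM21. Protein sequences were not analysed here. Reads are not independent molecules.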

Additional observations from a re-analysis of the deposited data

Results flagged for a closer look

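A total of 8 members were flagged because their responses in the 2 tissues differed in the interaction test over all genotypes, and Pdia5 also in B6 alone. The differences, log2 fold change in liver minus kidney, were -1.08 ± 0.22 for Pdia5 (-1.69 ± 0.27 in B6), -1.09 ± 0.24 for Qsox1, -0.82 ± 0.17 for Tmx4 and -1.29 ± 0.31 for Sdf2l1. They were 0.94 ± 0.20 for Dnajc10, 0.81 ± 0.20 for Erp29, 0.81 ± 0.20 for Fkbp14 and 1.07 ± 0.34 for Fkbp7. Pdia5, Dnajc10, Tmx4, Qsox1, Sdf2l1, Erp29 and Fkbp14 kept their call over all genotypes under each of the 12 other settings and with each of the 33 libraries left out, and Fkbp7 under 8 of 12 settings and 30 of 33 libraries. None of these settings added the overlapping gene Naa25 to Erp29, which made its tissue difference smaller. Nor was the overlapping gene Plekha8 added to Fkbp14, and its effect was not computed. Summed markers of the main cell type of each tissue were lower with TM other than in F1 liver, where the groups overlapped, although in F1 kidney the 4 tubule markers had a median log2 fold change of 0.23. Their part in the differences was not tested. No group had the 4 samples that a check for outlying samples needs.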

How the results depend on the processing

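Of 4357 values of single members under another setting or with a library left out, 4118 kept their call or lack of a call, 167 lost the call, 72 gained it and none that was called changed sign. Changes of sign in members not called in either fit were not counted. Shares of all genes called under the other settings are not given in this section. Counting members called in either direction, limma without its trend called 0 in B6 liver and 0 in F1 liver, against 21 and 18. No filter on low values gave 9 in F1 liver, and leaving out the 5 libraries gave 28 from 1 TM sample, assumed to vary like the controls. The tissue test in B6, at 1, gave 2 with a pseudocount of 5, a mean of at least 20 or TMM scaling, 5 with DESeq2, 5 without the 5 libraries and 3 with the replicate block. The tissue test in CAST, at 0, gave 2 with DESeq2. In F1, at 0, it gave 1 with DESeq2 and 5 without the 5 libraries, and the genotype test in kidney, at 0, gave 1 with DESeq2. With each replicate left out in turn the members called ranged from 20 to 24 in B6 kidney, 15 to 22 in B6 liver, 21 to 25 in CAST kidney, 21 to 23 in CAST liver, 21 to 27 in F1 kidney and 12 to 21 in F1 liver. In the tissue tests they ranged from 1 to 4 in B6, 0 to 1 in F1 and 7 to 10 over all genotypes, and stayed at 0 in CAST and in both genotype tests. With the replicate block, which pairs samples in B6 and CAST kidney, 21 and 25 members were called there as before, and 27 in F1 kidney, 25 in B6 liver, 23 in CAST liver, 23 in F1 liver and 7 in the tissue test over all genotypes, of which Fkbp7 was the member lost. Groups of 2 or 3 samples limit all tests, and how far depth limits the members with the lowest counts, Cdnf and Fkbp7, was not tested. The smallest library held 3355262 reads.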
